A study of Mus musculus with 12 samples.

Results

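The chemokine ligand genes of medullary thymic epithelial cells (mTECs) are described here. They were taken by symbol: every Ccl or Cxcl gene with a plain number, plus Xcl1, Cx3cl1, Pf4 and Ppbp. This gave 40 of the 50600 genes in the count tables. RNA sequencing of polyadenylated RNA was available for primary MHC class II high cells (mTEC hi, 6 libraries) and MHC class II low cells (mTEC lo, 6 libraries) from the thymus of mice 6 to 8 weeks old. The strain was B6.B6CB-Psmb11tm1Smta throughout. Psmb11-deficient animals are given as Psmb11-/- and wild-type (WT) animals as Psmb11+/+. Psmb11 encodes the thymoproteasome subunit beta5t, a protein of cortical epithelium, and no other allele or treatment is named. Title, source name and strain named the same genotype in 8 libraries, which left 2 Psmb11-deficient and 2 WT libraries of each cell type. In the other 4 libraries, numbered 1 and 3 in each cell type, the title contradicted the source name and strain. Those 4 were used between cell types and kept out of the main genotype tests. This left Psmb11-deficient libraries numbered 1 and 2 and WT libraries numbered 2 and 3 in each cell type. A difference that went with the number therefore cannot be fully told apart from 1 between genotypes.

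Read totals over genes lay between 38791960 and 86793594. Psmb11 was at 0.847 to 1.63 CPM (read counts relative to library size, TMM-scaled) in the 4 Psmb11-deficient libraries and 7.51 to 12.2 CPM in the 4 WT libraries. The disputed libraries had 1.12 and 1.26 CPM under a knockout title and 8.16 and 7.10 CPM under a WT title. These values placed no library in a group. Aire, which defines mature mTECs, averaged 1979 CPM in mTEC hi and 17.6 in mTEC lo, and the MHC class II gene H2-Aa 5451 and 2119. Nothing in the labels says whether libraries came from separate animals or pools. A p-value here sets a difference only against the spread between libraries, and that spread may be technical. In such bulk RNA, fewer cells of a type and less RNA per cell cannot be told apart.

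Chemokines are small secreted or membrane-bound proteins that guide cells along gradients by engaging G protein-coupled receptors. They are classed by their first cysteines, which are adjacent (CC), parted by 1 residue (CXC) or by 3 residues (CX3C), or reduced to a lone cysteine (XC). In the thymus, CCR7 ligands draw thymocytes that have passed positive selection into the medulla, CCR9 and CCR4 ligands act on precursors and maturing thymocytes, and XCL1 draws XCR1-bearing dendritic cells to mature mTECs. The coding bases around the class-defining cysteines are shown for a member of each class that the results return to, 5′ to 3′, with the cysteine codons in capitals. They were read from the longest annotated coding sequence of each gene in GENCODE M21 (GRCm38), and all 4 genes changed between the cell types.
Ccl25 (CC): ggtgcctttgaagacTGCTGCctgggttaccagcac
Cxcl13 (CXC): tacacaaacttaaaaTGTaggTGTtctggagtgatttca
Cx3cl1 (CX3C): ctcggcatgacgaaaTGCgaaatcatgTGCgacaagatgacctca
Xcl1 (XC): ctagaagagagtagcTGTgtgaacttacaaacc

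A second set of sequences bears on what the counts can resolve. Ccl21a (chr4:42772860-42773993, minus strand) and Ccl21b (chr4:42255767-42256432, plus strand) share 402 coding bases, of which 2 differ. Counted from the first base of the start codon, the differences are T84A and C194T, Ccl21a first. Coding bases 64 to 214 of each gene follow, with the differing bases in capitals. All other coding bases are the same in both genes, so a read that lies within them and covers neither position fits both. Only coding bases were compared.
Ccl21a: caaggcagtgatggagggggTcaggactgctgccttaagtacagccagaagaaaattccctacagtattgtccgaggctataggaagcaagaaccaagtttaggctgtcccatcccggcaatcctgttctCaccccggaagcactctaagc
Ccl21b: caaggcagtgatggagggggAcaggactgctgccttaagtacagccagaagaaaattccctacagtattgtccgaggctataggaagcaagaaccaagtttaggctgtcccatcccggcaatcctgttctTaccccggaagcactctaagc

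The first comparison asked which chemokine genes separate mTEC hi from mTEC lo. Of the 40 genes, 39 had a read in some library and 38 passed the filter on low counts (Ccl26 and Ccl27b did not). By edgeR's quasi-likelihood test over all genes at an adjusted p of 0.05, 26 rose in mTEC hi and 12 fell. The background was high: of 23923 genes tested, 82.1% were called, 44.2% higher and 38% lower. The chemokine counts are read against those shares, and the size of the changes says more than their number. Changes of at least 4-fold were found upward in 13 chemokine genes and downward in 6, where 24.3% and 3.75% of all genes passed the same rule. The 13 include Ccl19, which fell short of 4-fold once its near-identical copies were summed (log2 fold change 0.32). The 6 include Ccl21b, which has such copies as well. The median log2 fold change was 1.24 over the 38 genes and 0.08 over all genes. Library values did not overlap between the cell types for 35 of the 38, against 68.8% of all genes.

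**Figure D1:**
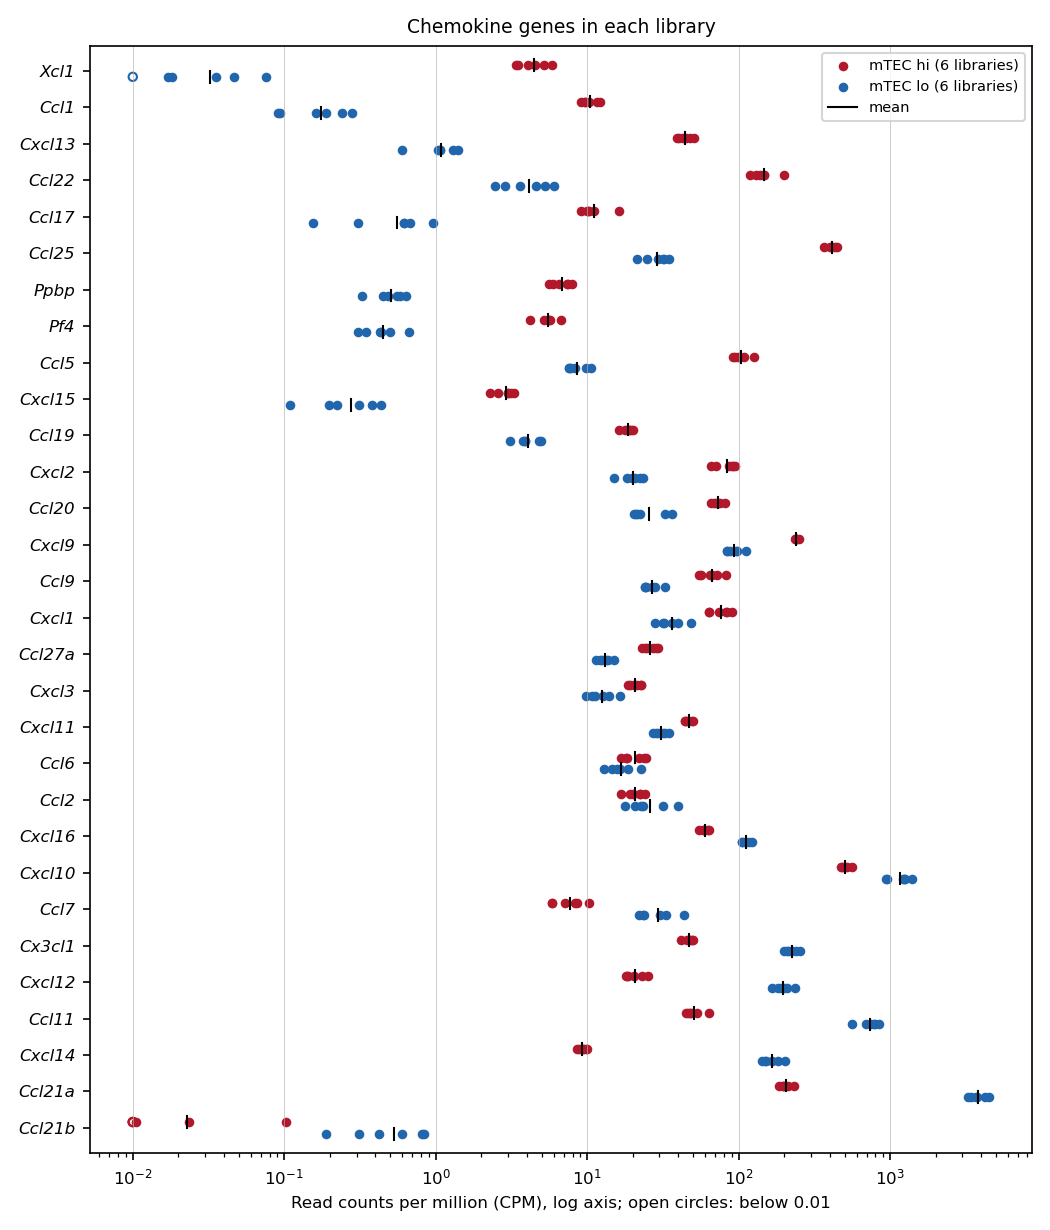
CPM of 30 chemokine genes in each of 6 mTEC hi libraries (red) and 6 mTEC lo libraries (blue), on a log axis, with the mean as a bar. Ccl6 and Ccl2 are the genes shown whose 2 groups of points overlap.

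Levels were compared between genes per length, as TPM (RSEM's length-scaled transcript level). In mTEC hi the order began with Ccl21a (1445 ± 122 TPM), Cxcl10 (1138 ± 83.8), Ccl25 (693 ± 56.1), Ccl19 (572 ± 29.4) and Ccl5 (442 ± 38.3; SD, n = 6). The library ranges of Ccl25 and Ccl19 overlapped, as did those of every neighbouring pair from Ccl27a (237 ± 17.2 TPM) down to Cxcl15 (2.40 ± 0.34 TPM). In mTEC lo Ccl21a stood at 21150 ± 1496 TPM, followed by Cxcl10 (1929 ± 302), Ccl11 (1022 ± 107), Ccl19 (174 ± 14.2) and Cxcl12 (136 ± 10.6; SD, n = 6). The first 4 of these did not overlap. Cxcl12, Cxcl14 and Cxcl16 overlapped each with the next, down to Cx3cl1, which did not overlap with Cxcl9 after it. Summed over all chemokine genes and the near-identical copies described below, mTEC hi held 7943 ± 201 TPM and mTEC lo 33070 ± 1936 TPM. Ccl21a and its copies took 25.8% ± 1.54 of that sum in mTEC hi and 85.4% ± 0.80 in mTEC lo. The rest of the mTEC hi sum was spread: Ccl19 and its copies took 14.6%, Cxcl10 14.3%, Ccl27a and its copies 10.8%, Ccl25 8.74% and Ccl5 5.56%. In mTEC lo the corresponding shares were 2.24%, 5.83%, 0.40%, 0.11% and 0.087%. The order in mTEC hi depended on the counting. In reads per kilobase of effective length Cxcl10 (19.6%) and Ccl25 (15.3%) came first, and Ccl19 with its copies (10.1%) and Ccl21a with its copies (9.72%) followed. In mTEC lo the same counting left Ccl21a and its copies first, at 63.2%. Reads mapping to several places were not in these counts.

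The CCR7 ligands moved apart. Ccl21a, the main chemokine that brings selected thymocytes into the medulla, was at 184.5, 200.1 and 231.8 CPM (lowest, median, highest library) in mTEC hi and at 3266, 3722 and 4504 CPM in mTEC lo. The 2 groups were far apart, at a log2 fold change of -4.23 (SE 0.087, adjusted p = 5e-17). Ccl19, the other CCR7 ligand, was at 16.3, 18.9 and 19.98 CPM in mTEC hi and 3.07, 3.89 and 4.92 in mTEC lo, again without overlap (log2 fold change 2.20, SE 0.086, adjusted p = 1.52e-13).

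How far Ccl19 rose depended on its copies. GENCODE M21 places 4 genes on chromosome 4 whose sequence matched 81.2% to 81.5% of the Ccl19 coding bases at 98.95% identity or more, and 4 genes with 99.5% identity to Ccl21a, Ccl21b among them. Ccl27a has Gm13306 and Ccl27b as copies. The count table and RSEM treated these copies differently. In the count table, reads mapping to several places stood apart and were credited to no gene (6.14% to 8.50% of a library's reads). Read counts of a gene, or of its copies summed, may thus leave out reads that fit more than 1 copy. Gm21541, a Ccl21a copy, had 63 reads in all in the count table and 689238 RSEM expected counts. Gm2564, a Ccl19 copy, had 1 read and 41354 expected counts. With all copies summed, Ccl19 reads were 64.4 ± 5.17 CPM in mTEC hi and 51.5 ± 5.37 in mTEC lo (SD over 6 libraries of each type), a log2 fold change of 0.32 (SE 0.063, adjusted p = 1.39e-04). Expected counts of the same sum gave 313 ± 17.6 CPM in mTEC hi and 211 ± 23.9 in mTEC lo, a log2 fold change of 0.57 (SE 0.061). The direction held, but the 4.59-fold rise of the Ccl19 reads alone did not carry over to the sum. Among the copies, Ccl19-ps1 averaged 23.5 CPM in mTEC hi and 34.1 in mTEC lo, and Gm12407 21.6 CPM and 12.1 CPM.

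The fall of Ccl21a was little affected, at -4.23 with the copies summed in read counts and -4.04 in expected counts. Ccl21b itself had 8 reads in mTEC hi and 182 in mTEC lo (log2 fold change -4.59, SE 0.65, and -6.06 without disputed replicate 1 of mTEC hi). Within its coding bases it cannot be told from the copies of identical coding sequence (Gm13304, Gm21541 and Gm10591). Ccl27a, which encodes a CCR10 ligand of skin, was at 23.0, 26.0 and 29.5 CPM in mTEC hi and 11.5, 12.95 and 14.97 in mTEC lo. Its log2 fold change was 1.0 (SE 0.081) in reads and 2.14 (SE 0.065) in expected counts with the copies summed.

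**Figure D2:**
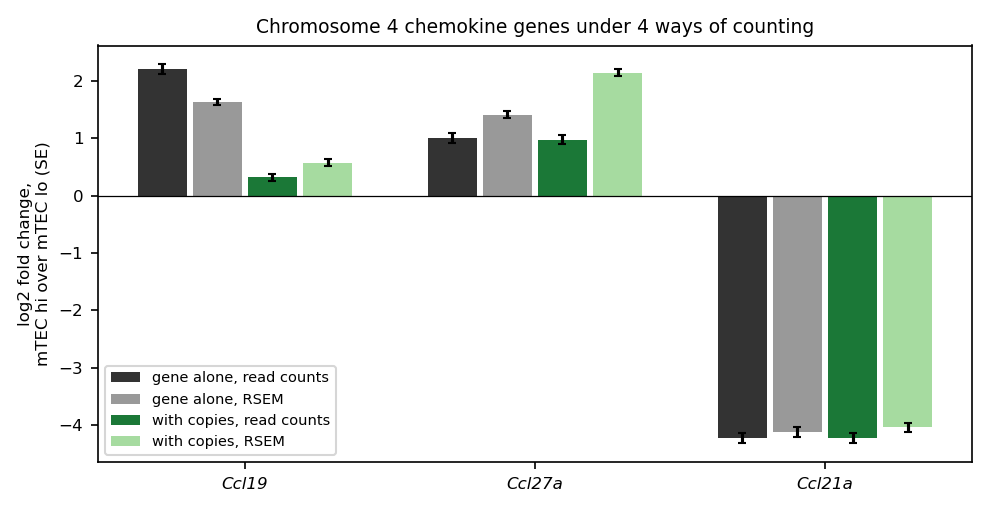
Log2 fold change of Ccl19, Ccl27a and Ccl21a, mTEC hi over mTEC lo, for the gene alone and with its copies, from read counts and from RSEM expected counts (bars: value, whiskers: SE). Ccl21a lies near -4 in all 4, while Ccl19 runs between 0.32 and 2.20 and Ccl27a between 0.97 and 2.14.

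Ligands of CCR9, CCR4 and XCR1 rose. Ccl25, the CCR9 ligand, was at 366.1, 410.4 and 444.7 CPM in mTEC hi and 21.4, 30.6 and 34.6 in mTEC lo, a log2 fold change of 3.83 (SE 0.090). Ccl22 and Ccl17 encode the CCR4 ligands, products of mature mTECs and dendritic cells. Ccl22 was at 118.0, 143.3 and 198.0 CPM in mTEC hi and 2.45, 4.12 and 6.01 in mTEC lo, which is 35.7-fold. Ccl17 was at 9.04, 10.16 and 16.2 CPM in mTEC hi and 0.16, 0.62 and 0.96 in mTEC lo, which is 20.04-fold. The cell types did not overlap for any of these 3 genes. Xcl1 had 1686 reads in mTEC hi and 11 in mTEC lo; its levels were 3.397, 4.29 and 5.85 CPM in mTEC hi and 0, 0.027 and 0.075 in mTEC lo. Its log2 fold change of 7.03 (SE 0.29, adjusted p = 3.76e-13) was the largest among the 38 genes.

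The interferon-inducible CXCR3 ligands did not move together. Cxcl9 was at 234.9, 237.8 and 250.9 CPM in mTEC hi and 84.0, 91.6 and 111.7 in mTEC lo (log2 fold change 1.36, SE 0.064). Cxcl11, annotated as a polymorphic pseudogene, had 44.2, 46.2 and 49.98 CPM in mTEC hi and 27.0, 30.5 and 34.6 in mTEC lo (0.61, SE 0.061). Cxcl10, which lies between them on chromosome 5, was at 470.7, 500.6 and 562.3 CPM in mTEC hi and 937.0, 1221 and 1396 in mTEC lo (log2 fold change -1.20, SE 0.088, adjusted p = 8.85e-10). No pair of groups overlapped. Of 15 interferon response genes, such as Irf7 and Ifit3, 14 fell in mTEC hi, where 38% of all genes did. None of them rose (median log2 fold change -1.54), so Cxcl9 and Cxcl11 had the opposite sign to that list and Cxcl10 the same sign. Cxcl10 and Cxcl11 lie within Art3 on the opposite strand. The libraries did not keep strand. Reads of Art3 (19016 in all, against 594811 for Cxcl10 and 28543 for Cxcl11) cannot be told apart from theirs where the genes overlap. Reads that the count tables held as ambiguous between genes were credited to none of them.

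The bases upstream of Cxcl10 are shown because they hold matches to 2 of the motifs searched, those marked here. In RefSeq's window (GRCm38.p6), chr5:92348920-92349119 on the minus strand covers bases -230 to -31 from the start site. Capitals mark matches to the interferon-stimulated response element (GAAA, any 2 bases, GAAA) and to the kappaB consensus of NF-kB.
Cxcl10: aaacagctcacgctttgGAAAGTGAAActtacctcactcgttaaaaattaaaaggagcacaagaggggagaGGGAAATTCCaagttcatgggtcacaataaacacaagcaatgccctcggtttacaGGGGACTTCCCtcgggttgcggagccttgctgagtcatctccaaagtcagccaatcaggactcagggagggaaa
A RefSeq window was matched for 29 of the 40 genes (35 windows), and the 250 bases before each start site were searched on both strands. The kappaB pattern stood in 7 of the 35 windows (Ccl1, Ccl9, Ccl20, Cxcl1, Cxcl2, Cxcl3 and Cxcl10), or 20%, and in 7.25% of all 32851 windows. The interferon-stimulated response element stood in those of Ccl19, Cxcl10 and Cxcl14, or 8.57%, and in 2.98% of all windows. TTCNNNGAA, a pattern of the interferon gamma activated sequence, stood in those of Ccl17 and Cxcl14 (5.71%, against 7.02% of all windows). TATAAA stood in 11 windows (31.4%, against 12.4%). A match is a description of letters and does not show binding.

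Ligands of CXCR4, CX3CR1 and CXCR6 fell, and Cxcl14 with them. Cxcl12, the CXCR4 ligand that retains precursors, was at 18.0, 19.5 and 25.2 CPM in mTEC hi and 165.5, 194.5 and 236.6 in mTEC lo (log2 fold change -3.26, SE 0.089). Cxcl14, a broadly expressed epithelial chemokine, was at 8.53, 9.37 and 9.90 CPM in mTEC hi and 141.8, 158.7 and 203.4 in mTEC lo (log2 fold change -4.16, SE 0.088). Cx3cl1 and Cxcl16 encode the 2 chemokines with a membrane anchor, ligands of CX3CR1 and CXCR6. Cx3cl1 was at 41.8, 47.2 and 49.9 CPM in mTEC hi and 200.1, 219.8 and 254.0 in mTEC lo (log2 fold change -2.25, SE 0.054). Cxcl16 was at 54.7, 59.6 and 64.2 CPM in mTEC hi and 105.3, 111.1 and 122.8 in mTEC lo (log2 fold change -0.90, SE 0.050), and it overlaps Zmynd15 on the opposite strand over 552 bases. None of the 4 overlapped between the cell types. The CXCR5 ligand gene Cxcl13, which organises B cell follicles, went the other way: 39.4, 43.8 and 50.4 CPM in mTEC hi and 0.60, 1.07 and 1.40 in mTEC lo, which is 41.0-fold.

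**Figure D3:**
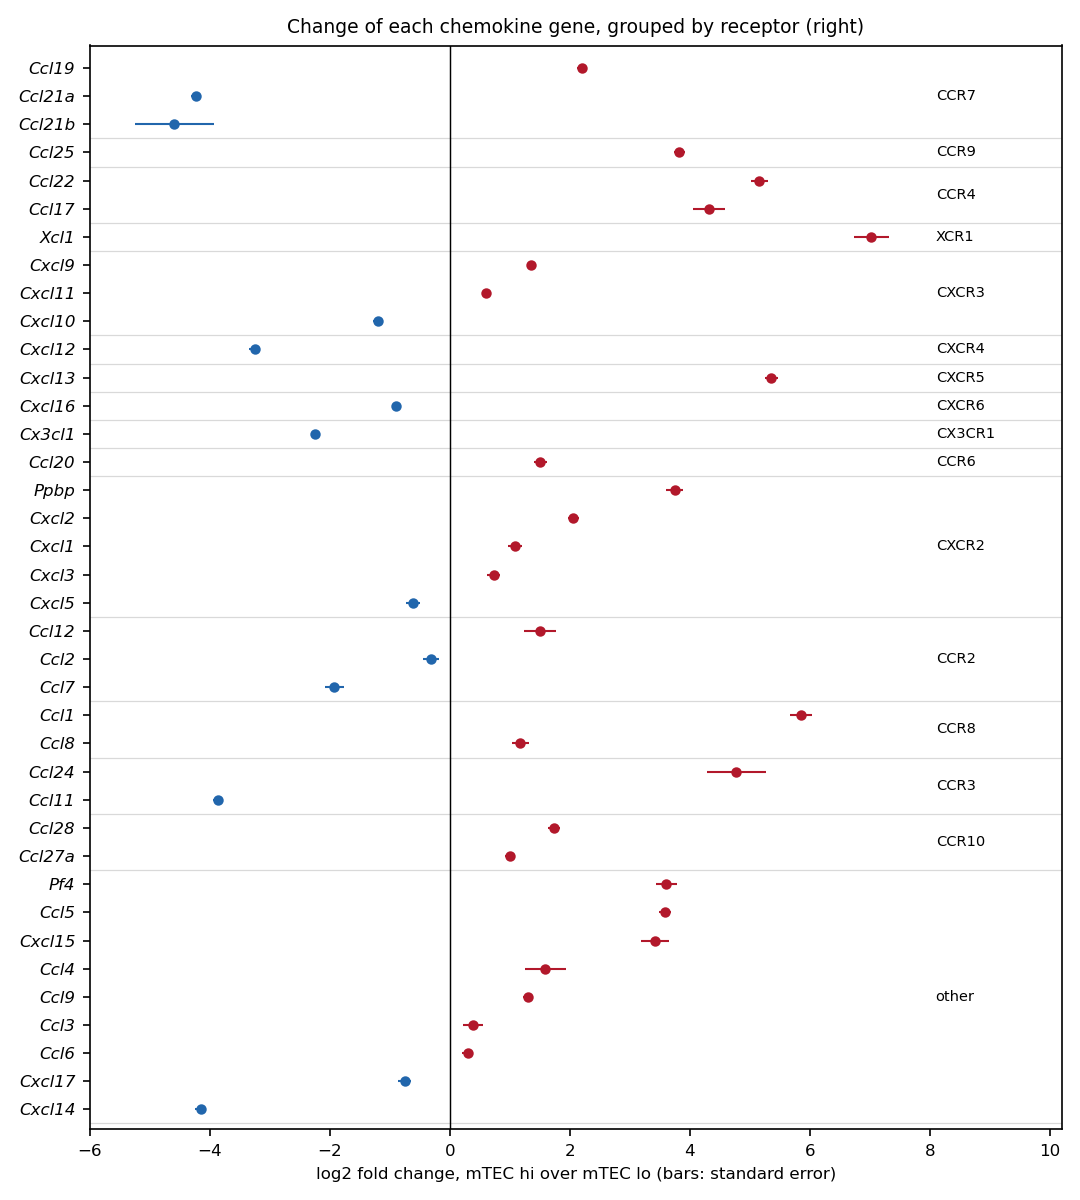
Log2 fold change of 38 chemokine genes, mTEC hi over mTEC lo (dots: edgeR estimate, bars: SE), grouped by the receptor named at the right. Genes of the CCR7, CXCR3, CXCR2, CCR2 and CCR3 groups stand on both sides of 0; genes placed in no receptor group come last.

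The neutrophil-attracting ligands of CXCR2 rose, except Cxcl5. Cxcl2 was at 65.9, 88.6 and 94.2 CPM in mTEC hi and 15.1, 20.2 and 23.3 in mTEC lo (log2 fold change 2.06, SE 0.095). Cxcl1 was at 63.3, 78.1 and 89.9 CPM in mTEC hi and 27.9, 34.2 and 48.7 in mTEC lo (1.08, SE 0.12), and Cxcl3 at 18.5, 20.8 and 22.7 CPM and 9.75, 11.98 and 16.4 CPM (0.73, SE 0.11). The groups of these 3 genes did not overlap, nor did those of Ppbp, a platelet granule chemokine, with 5.61, 6.93 and 7.94 CPM in mTEC hi and 0.33, 0.52 and 0.64 in mTEC lo (13.5-fold). Cxcl5 fell by 0.61 on the log2 scale (SE 0.11). Ccl20, the CCR6 ligand, was at 65.2, 71.8 and 81.5 CPM in mTEC hi and 20.4, 21.8 and 36.3 in mTEC lo (log2 fold change 1.51, SE 0.11).

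Cxcl1, Cxcl2, Cxcl3 and Ccl20, each called higher, held the kappaB pattern within 110 bases of the start site, and those stretches are printed. They cover bases -110 to -31 (RefSeq, GRCm38.p6, all on the plus strand), and capitals mark the pattern, counted on both strands. In Cxcl1, Cxcl2 and Cxcl3 the capitals are the same 11 letters, from base -71, -97 and -73.
Cxcl1, chr5:90891135-90891214: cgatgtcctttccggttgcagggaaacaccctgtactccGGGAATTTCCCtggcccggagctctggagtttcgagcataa
Cxcl2, chr5:90903789-90903868: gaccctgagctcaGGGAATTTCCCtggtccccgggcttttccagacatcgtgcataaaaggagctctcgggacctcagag
Cxcl3, chr5:90785991-90786070: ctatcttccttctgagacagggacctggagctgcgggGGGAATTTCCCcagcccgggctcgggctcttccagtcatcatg
Ccl20, chr1:83116656-83116735: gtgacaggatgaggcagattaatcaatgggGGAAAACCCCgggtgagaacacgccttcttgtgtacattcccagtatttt
Of 14 NF-kB pathway genes, 7 rose in mTEC hi (Cd40 most, at 3.04) and 4 fell (median 0.11). Over all genes 44.2% rose and 38% fell, with a median of 0.08, so this list stayed near the background. Of the other genes with the kappaB pattern upstream, Ccl1 and Ccl9 rose and Cxcl10 fell. Ccl9 (from base -35) and Cxcl10 (from base -104) also held it within 110 bases of the start site, so that distance was not particular to genes that rose. Whether the pattern had a part in any of these changes was not tested.

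Eosinophil, monocyte and macrophage chemokines split. Ccl11, or eotaxin, which acts on CCR3, was at 44.9, 47.9 and 63.3 CPM in mTEC hi and 558.2, 763.5 and 846.8 in mTEC lo, a log2 fold change of -3.87 (SE 0.084). Ccl24, another CCR3 ligand, stood at 1.21 ± 0.15 CPM in mTEC hi and 0.044 ± 0.066 in mTEC lo (SD over 6 libraries of each type) on 15 mTEC lo reads (log2 fold change 4.78, SE 0.50). Without disputed replicate 3 of mTEC lo, that value was 5.97. Among CCR2 ligands of monocytes, Ccl7 had 5.84, 7.73 and 10.22 CPM in mTEC hi and 22.0, 26.96 and 43.3 in mTEC lo, without overlap (-1.93, SE 0.16). Ccl12 rose by 1.51 (SE 0.26). Ccl2 was at 16.8, 21.2 and 23.9 CPM in mTEC hi and 17.7, 23.1 and 39.5 in mTEC lo. Those Ccl2 values overlapped. Its log2 fold change of -0.31 (SE 0.14) had an adjusted p of 0.0461 by edgeR, and scaling by library size alone put it at -0.02 (adjusted p = 0.896). Without Psmb11-deficient mTEC lo replicate 2, the highest library, it was -0.17 (adjusted p = 0.172). Its call was lost in 8 of the 12 fits that left out a library and kept without mTEC hi WT replicate 2 or without mTEC lo Psmb11-deficient replicate 1, disputed replicate 1 or WT replicate 2.

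Both CCR8 ligands rose: Ccl1 was at 9.06, 9.93 and 12.1 CPM in mTEC hi and 0.091, 0.18 and 0.28 in mTEC lo, which is 57.8-fold, and Ccl8 rose by 1.17 (SE 0.14). The inflammatory CC genes Ccl3, Ccl4, Ccl5, Ccl6 and Ccl9 were each called higher. Ccl5, which attracts T cells and monocytes, had 91.5, 100.5 and 126.0 CPM in mTEC hi and 7.56, 8.11 and 10.6 in mTEC lo (log2 fold change 3.59, SE 0.093). Ccl9 had 55.1, 65.7 and 83.1 CPM in mTEC hi and 24.1, 25.6 and 32.7 in mTEC lo (1.31, SE 0.080). For both genes the mTEC hi libraries lay wholly above. Ccl4 rose by 1.59 (SE 0.34). Ccl6 had 16.8, 20.1 and 24.6 CPM in mTEC hi and 12.8, 16 and 22.6 in mTEC lo (0.295, SE 0.097). E230016K23Rik covers Ccl6 on the opposite strand over 5206 bases, and its reads (10619 in all, against 13793 for Ccl6) cannot be told apart from those of Ccl6 there. Ccl6 and Ccl3 (0.39, SE 0.17, adjusted p = 0.0424) overlapped between the cell types, and Ccl3 kept its call only in 3 of the 12 fits that left out a library, those without mTEC hi disputed replicate 1, mTEC hi Psmb11-deficient replicate 2 or mTEC lo WT replicate 3. Ccl28, a mucosal CCR10 ligand, rose by 1.74 (SE 0.11). Pf4, the platelet factor, had 4.16, 5.57 and 6.75 CPM in mTEC hi and 0.31, 0.43 and 0.67 in mTEC lo, which is 12.2-fold. Cxcl15, known from mouse lung, had 2.29, 3.01 and 3.31 CPM in mTEC hi and 0.11, 0.27 and 0.43 in mTEC lo, which is 10.7-fold. Neither overlapped between the cell types. Cxcl17, a mucosal chemokine, fell by 0.76 (SE 0.11).

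Chemokine genes lie in clusters, and position was not used to choose them. Joining genes less than 100 kb apart gave 7 clusters with 29 of the 40 genes, and 5 of the 7 held calls in both directions. On chromosome 8, within 66.4 kb, Ccl22 (chr8:94745590-94751699) and Ccl17 (chr8:94810453-94812036) rose while Cx3cl1 between them (chr8:94772009-94782427) fell. On chromosome 11, within 270.1 kb, the first 3 genes, Ccl2, Ccl7 and Ccl11, were called lower and the next 3, Ccl12, Ccl8 and Ccl1, higher. The step was largest between Ccl11 (chr11:82057823-82062955) at -3.87 and Ccl12 (chr11:82101845-82103400) at 1.51. The cluster of Ccl5, Ccl9, Ccl6, Ccl3 and Ccl4 on the same chromosome (138.9 kb) rose throughout, though Ccl6 and Ccl3 by little. On chromosome 5, 6 of 7 genes from Cxcl5 to Cxcl2 (146.6 kb) rose, Cxcl5 being the exception. Ccl19 and Ccl21a, neighbours on chromosome 4, moved in opposite directions.

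**Figure D4:**
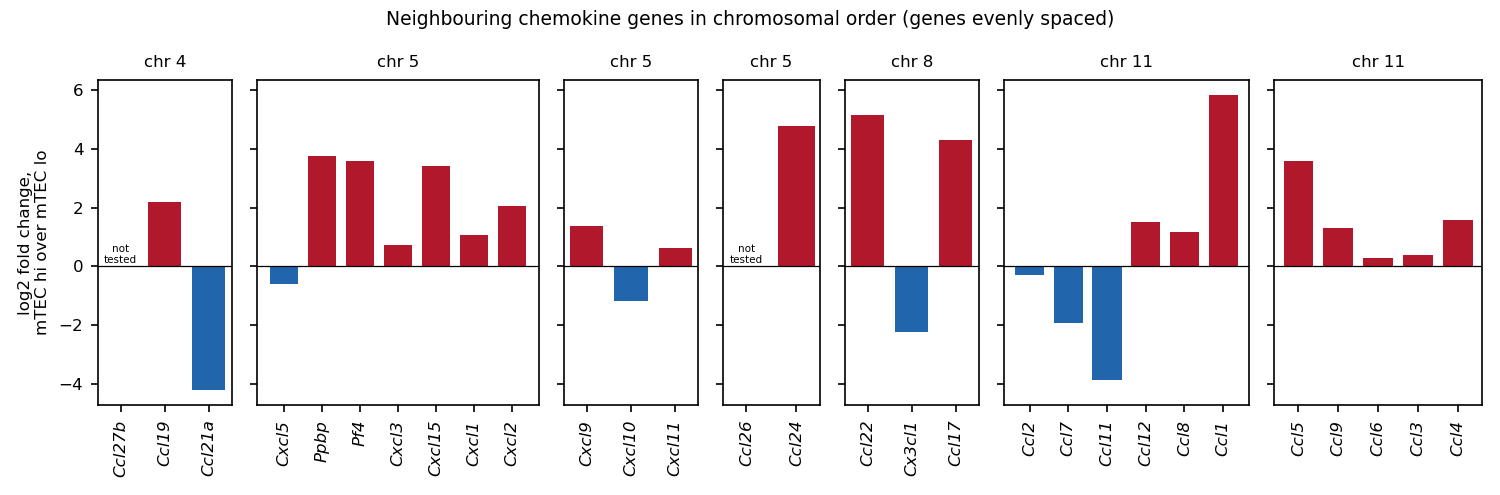
Log2 fold change, mTEC hi over mTEC lo, of chemokine genes in the 7 clusters, in chromosomal order and evenly spaced (bars: edgeR estimate; standard errors are in the plot by receptor). Cx3cl1 points down between Ccl22 and Ccl17, and the chromosome 11 run turns from down to up after Ccl11.

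Receptors were measured in the same libraries. All 17 signalling chemokine receptors in the list were called higher in mTEC hi, where 44.2% of all genes were, with a median log2 fold change of 2.63. Their summed level was 253.4 to 274.9 CPM in mTEC hi, against 17 to 24.6 in mTEC lo. Among those with at least 1 CPM in mTEC hi the largest rises were Ccr6 (6.63; 18.2 CPM in mTEC hi and 0.19 in mTEC lo), Cxcr5 (5.66; 24.8 CPM and 0.49 CPM) and Ccr4 (5.39; 83.8 CPM and 2.01 CPM). Ccr7, the receptor of Ccl19 and Ccl21a, was at 72.5 CPM in mTEC hi and 4.32 in mTEC lo. Of 5 atypical receptors, which bind chemokines without signalling through G proteins, Ackr2, Ackr1 and Ccrl2 rose. Ackr4, which scavenges CCR7 and CCR9 ligands, fell by 2.92 on the log2 scale to 7.13 CPM in mTEC hi, against 53.8 in mTEC lo, and Ackr3, which scavenges CXCL12, fell by 1.63.

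Markers of other cells also differed between the sorted fractions. Over all genes 44.2% were called higher in mTEC hi and 38% lower, and the counts here are read against those shares. Dendritic cell and macrophage markers rose in 8 of 9 cases (summed 544 to 594.6 CPM in mTEC hi, against 70.3 to 97.4 in mTEC lo), with Flt3 at 12.7 CPM and 0.33 CPM. All 5 B cell markers rose (43.0 to 44.7 CPM, against 10.1 to 15.2), as did all 5 neutrophil markers (277.6 to 343.4 CPM, against 7.19 to 16.4), all 6 platelet and megakaryocyte markers (14.95 to 19.2 CPM, against 4.41 to 6.33) and all 4 erythroid markers (16.9 to 19.8 CPM, against 1.52 to 2.504). Of 8 thymocyte markers 5 rose (66.8 to 163.1 CPM, against 30.9 to 80.1). These moved with the rises of Ccl17, Ccl22, Ccl5, Pf4, Ppbp and the receptors, and their part in those rises was not tested. Fibroblast and pericyte markers split, with Col1a1 and Pdgfrb higher and Dcn, Col3a1, Pdgfra and Lum lower in mTEC hi (194.1 to 217.5 CPM, against 233.6 to 367.2). All 6 tuft cell markers fell (246.2 to 364.7 CPM, against 1197 to 1822), as did all 10 immediate early genes (4303 to 5912 CPM, against 20270 to 25470). Their part in the falls of Ccl11, Cxcl12 and Cxcl14 was not tested. Of 5 cortical epithelial markers Cd83, Foxn1 and Ly75 rose, Prss16 fell by 0.25 and Psmb11 was not called. Of 5 endothelial markers none rose and 3 fell (38.9 to 57.4 CPM, against 41.2 to 64.1). Mature mTEC markers rose in 5 of 5 cases, and markers of Ccl21-type or immature mTECs fell in 4 of 5, with Lifr furthest at -3.98. Of 5 markers shared by mTECs, H2-Aa and Cd74 rose while Epcam, Krt5 and Krt14 fell.

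The second comparison asked whether chemokine genes differed between Psmb11-deficient and WT cells. None of the 38 tested genes was called by edgeR in mTEC hi or in mTEC lo, where 1 gene (0.00375% of 26642) and 4 genes (0.015%) were called among all genes, Psmb11 in both. An unadjusted p under 0.05 was found for 4 chemokine genes in mTEC hi (3.45% of all genes) and 7 in mTEC lo (11.3% of all genes). In DESeq2, 0 chemokine genes were called in mTEC hi and 1, Ccl22, in mTEC lo, where 158 genes (0.593%) were called.

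In mTEC hi the lowest p-values were those of Ccl11, Ccl22 and Ccl6. Ccl11 was at 63.3 and 52.9 CPM under Psmb11 deficiency, against 47.4 and 46.0 in WT libraries (log2 fold change 0.32, SE 0.11). Ccl22 was at 147.4 and 198.0 CPM under Psmb11 deficiency, against 139.2 and 118.0 in WT libraries (0.43, SE 0.14). Ccl6 was at 23.7 and 24.6 CPM under Psmb11 deficiency, against 18.3 and 18.1 in WT libraries (0.41, SE 0.14). The groups did not overlap in these genes, and edgeR's adjusted p was 1.0 for each. In mTEC lo the lowest were Ccl22, Ccl19 and Ccl20. Ccl22 was at 6.01 and 4.61 CPM under Psmb11 deficiency, against 3.63 and 2.85 in WT libraries (0.71, SE 0.19, edgeR adjusted p = 0.22). Ccl19 was at 4.92 and 4.78 CPM under Psmb11 deficiency, against 3.07 and 3.88 in WT libraries (0.47, SE 0.16, adjusted p = 0.314 by edgeR), and with its copies summed the log2 fold change was -0.0142. Ccl20 was at 36.3 and 22.4 CPM under Psmb11 deficiency, against 20.9 and 21.2 in WT libraries (0.47, SE 0.17, adjusted p = 0.32 by edgeR). Both Psmb11-deficient libraries lay above both WT libraries for each of these 3 genes. For Ccl22 in mTEC lo, the disputed libraries were at 5.25 CPM under a knockout title and 2.45 CPM under a WT title. With genotype from the title in all 12 libraries its log2 fold change was 0.83 (edgeR adjusted p = 0.0963), and with genotype from the source name 0.18 (adjusted p = 0.966). The disputed mTEC hi libraries with knockout and WT titles were at 148.0 and 130.8 CPM for Ccl22. For Ccl6 they were at 21.9 and 16.8 CPM, and for Ccl11 in the other order, at 44.9 and 48.4 CPM. In mTEC lo the knockout-titled library was also the lower for Ccl20 (20.4 and 32.7 CPM) and Ccl19 (3.78 and 3.9 CPM). The Ccl20 change in mTEC lo was 0.086 (SE 0.18) with genotype from the title and 0.55 (SE 0.13) from the source name.

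Small positive differences were common. The log2 fold change was above 0 for 28 of 38 genes in mTEC hi (73.7%, against 51.3% of all genes) and for 28 of 38 in mTEC lo (73.7%, against 47.6%), and 23 were above 0 in both cell types. The medians were 0.18 and 0.20, against 0.01 and 0 over all genes, with a median SE of 0.18 and 0.19 for a gene. With all 12 libraries and genotype from the title, the chemokine medians were 0.12 in mTEC hi and 0.19 in mTEC lo. With genotype from the source name they were smaller, at 0.087 and 0.080. Psmb11-deficient libraries lay wholly above WT libraries for 18 genes in mTEC hi (47.4%, against 18.5% of all genes) and 13 in mTEC lo (34.2%, against 18.6%). They lay wholly below for 3 (7.89%, against 17.7%) and 2 (5.26%, against 17.7%). Leaving out a library in turn put the median between 0.14 and 0.20 in mTEC hi and between -0.01 and 0.23 in mTEC lo, where the lowest value came without Psmb11-deficient replicate 2. That library had the highest level of 11 of the 23 chemokine genes with at least 5 CPM in mTEC lo, and Psmb11-deficient replicate 2 of mTEC hi that of 14 of 31. Thymocyte markers were above 0 in 8 of 8 cases in both cell types, and none was called. They mark 1 cell type and may not be separate observations. For mTEC hi their sums were 163.1 and 75.4 CPM under Psmb11 deficiency, against 68.2 and 70.8 in WT libraries. For mTEC lo the sums were 80.1 and 53.2 CPM, against 35.6 and 30.9. Disputed libraries numbered 1 (WT title, knockout source name) were at 112.7 (hi) and 59.2 CPM (lo). Those numbered 3 (knockout title, WT source name) were at 66.8 (hi) and 42.3 CPM (lo). Libraries numbered 1 thus had the highest sums whatever their title, and the sums overlapped by title but not by source name. Number and genotype cannot be told apart here. Tuft cell markers were above 0 in 0 of 6 cases in mTEC hi and 1 of 6 in mTEC lo, and immediate early genes in 0 of 10 and 3 of 10, with none called. The erythroid marker Hba-a1 was called in mTEC lo (log2 fold change 5.84, adjusted p = 0.0208 by edgeR). The part of these lists in the chemokine differences was not tested.

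In mTEC lo the calls turned on the pair of Psmb11-deficient libraries. Without replicate 1 of that group, 263 genes were called by edgeR (0.92% of those tested), among them Ccl2 (0.94) and Ccl8 (0.79). Without replicate 2, 323 genes were called (1.13%), among them Ccl20 (0.78), Ccl22 (0.88), Ccl6 (0.58) and Ccl25 (-0.65). No chemokine gene was in both sets. In these fits the lone Psmb11-deficient library is assumed to vary like the other groups. Of the 17 receptors none was called by edgeR in either cell type. The lowest p-values belonged to Ccr9 in mTEC hi (log2 fold change 0.41, adjusted p = 1.0) and Cx3cr1 in mTEC lo (-2.13, adjusted p = 0.244 by edgeR), with Cx3cr1 resting on 140 mTEC lo reads.

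**Figure D5:**
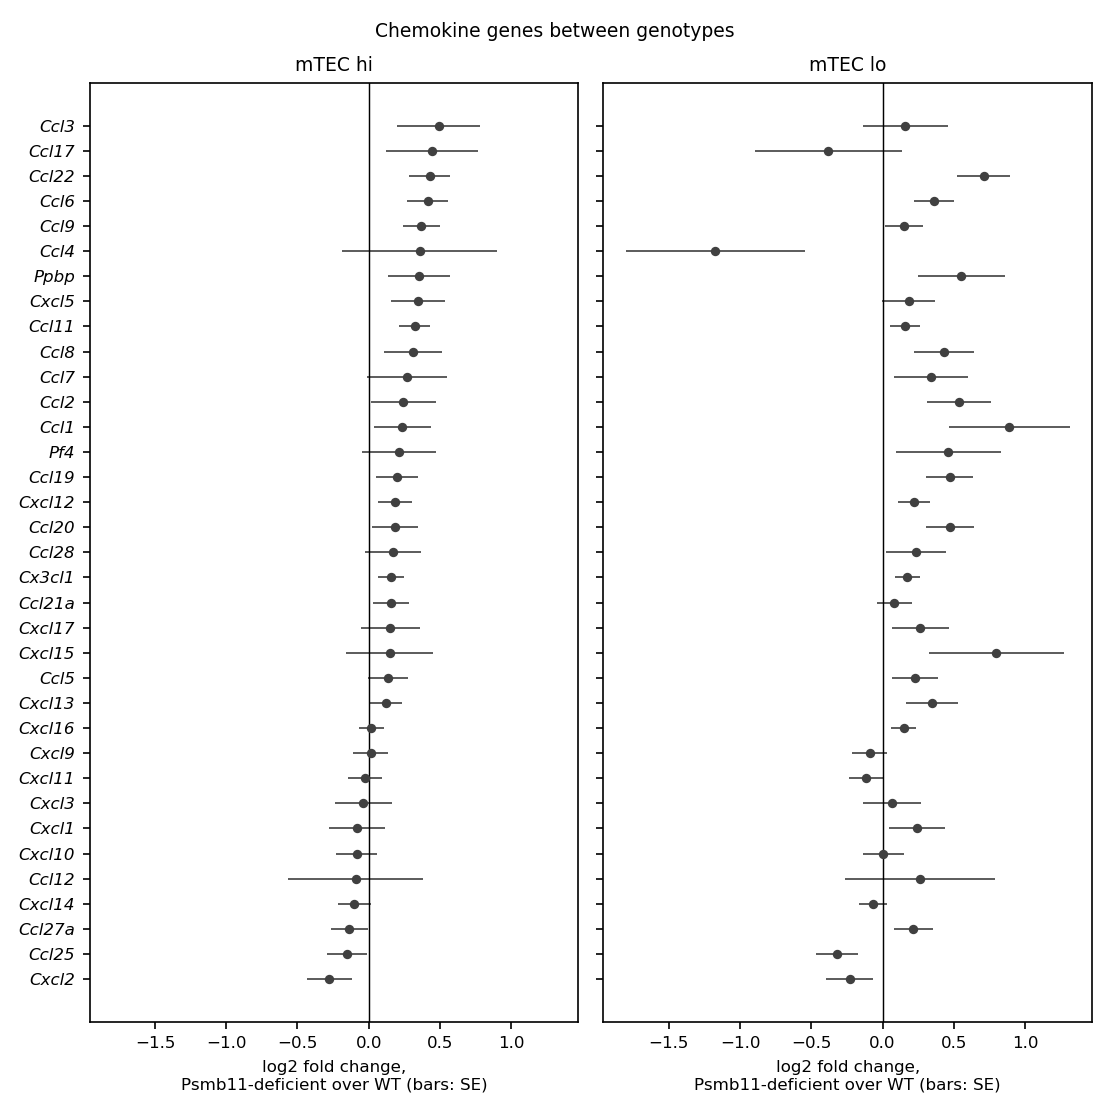
Log2 fold change of 35 chemokine genes, Psmb11-deficient over WT, in mTEC hi and in mTEC lo (dots: edgeR estimate, bars: SE; 2 libraries per group). Most dots lie right of 0 and none passed the threshold; Ccl21b, Xcl1 and Ccl24, with an SE of 1 or more in a cell type, are left out.

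Whether the genotype difference itself differed between the cell types was tested as an interaction. No gene of the 26642 was called by edgeR (0%), and 1174 (4.41%) had an unadjusted p under 0.05, of which 1 was a chemokine gene; DESeq2 called 9 genes and no chemokine. That gene was Ccl24, which had no read in either Psmb11-deficient mTEC lo library and at most 0.054 CPM in WT mTEC lo, so no fold is given. The next lowest p-values were those of Ccl27a (difference of log2 fold changes, mTEC hi minus mTEC lo, -0.35, SE 0.19) and Ccl4 (1.53, SE 0.83), with an adjusted p of 1.0 for each by edgeR.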

How the data were processed

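Medullary thymic epithelial cells of MHC class II high and low type were profiled by RNA sequencing in 12 libraries. Per the labels' protocols, RNA was taken up in TRIzol and cleaned on RNeasy columns, and TruSeq libraries were made from polyadenylated RNA. Tools named per the submitters' processing notes, without role or order, are RSEM 1.2.28, STAR 2.5.1b and CASAVA 1.8.2. The build is named GRCh38, although all gene identifiers are of mouse. The annotation is not stated in those notes. Names and positions were taken from GENCODE M21 (GRCm38), which matched 50376 of 50600 identifiers.

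The authors deposited a read count table per library, with raw counts per gene irrespective of strand, and RSEM tables. Per the file headers, the RSEM tables hold expected counts and TPM (transcript levels scaled for length by the authors), and the effective length. RSEM totals were 0.507 to 0.535 of the read totals. Reads assigned to no gene made up 13.0% to 15.8% in mTEC hi and 7.42% to 11.1% in mTEC lo and were left out of library sizes. Reads mapping to several places (6.14% to 8.50%) and reads held as ambiguous between genes stood in rows of their own. They were credited to no gene and were left out as well. The 2 strand columns held near equal counts, so strand was not kept.

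Read counts were tested across all genes by edgeR 4.0.16 (quasi-likelihood F test, TMM scaling) in R 4.3.3. Genes were kept by edgeR's filter with a minimum count of 10 and a minimum total of 15, with a Benjamini-Hochberg adjusted threshold of 0.05. Every adjusted p in the text comes from edgeR unless another tool is named. The cell types were compared over all 12 libraries, with a term for genotype class (Psmb11-deficient, WT or disputed), and the genotypes over 8 libraries in 4 groups with a common spread. CPM in the text are these read counts scaled by TMM. No pair of libraries of a type was alike within sampling noise (lowest chi-square per gene 7.77). DESeq2 1.42.0 and the other alternatives are given with their effect in the closing section. RSEM expected counts were rounded to whole numbers for their test. Copies were annotated genes with at least 95% identity over at least 80% of the coding bases.

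Per-library values are given for ligands of CCR7, CCR9, CCR4 and XCR1, for genes averaging 20 CPM or more in a cell type, and for genes changed at least 4-fold with at least 2 CPM. The members, gene lists and motifs were chosen with earlier results of these data known. A receptor of the list chosen at the start is not reported here.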

Additional observations from a re-analysis of the deposited data

Results flagged for a closer look

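Of 60 groups of 6 libraries examined for a single distant library, 3 held one by Dixon's criterion (critical value 0.625), and chance gives about 1 in 20. In mTEC hi, Ccl17 was at 16.21 CPM in Psmb11-deficient replicate 2, against 9.04 to 11.06 CPM in the other 5 libraries. Cxcl9 was at 250.9 CPM in disputed replicate 1 of mTEC hi, against 234.9 to 240.4 CPM in the others. In the same library Ccl21b was at 0.1024 CPM, against 0 to 0.0236 CPM in the others, on 8 reads over all 6 libraries. Each of these libraries was on the same side of mTEC lo as its group.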

How the results depend on the processing

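Over 24 other settings and 30 chemokine genes, 717 values of mTEC hi against mTEC lo were computed. Of these, 697 kept direction and call, 20 kept direction only and 0 reversed. Members called higher ranged from 22 to 27 and lower from 10 to 12. Requiring a change beyond 1.5-fold left 12958 of 19649 genes. Scaling by library size alone moved the median of all genes by 0.29 and gave 12907 higher and 6347 lower calls, against 10569 and 9080 with TMM. In reads per kilobase the shares in mTEC hi and mTEC lo were 9.72% and 63.2% for Ccl21a with copies, 15.3% and 0.36% for Ccl25, 19.6% and 14.9% for Cxcl10, and 1.83% and 9.27% for Ccl11.

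Between genotypes in mTEC hi, 1 gene was called in the main fit, 3 by DESeq2, 42 without a filter, 3 from RSEM counts with copies apart or summed, 0 with genotype from the source name, 2 with the cell type alone, and 0 to 2 with a library left out. Chemokine genes numbered 1 (Ccl22) without a filter. In mTEC lo, 4 genes became 9 by library size alone, 158 by DESeq2, 660 without a filter, 2 with genotype from the source name, 1 with the cell type alone, and 1 to 323 with a library left out. Chemokine genes numbered 1 by DESeq2, 3 without a filter, and 0 to 4 with a library left out. For the interaction, 0 genes became 9 by DESeq2, 141 without a filter, 2 from RSEM counts with copies apart or summed, and 0 to 49 with a library left out. The Ccl19 difference in mTEC lo reversed to -0.0142 with copies summed, and the Ccl24 interaction to -0.62 with genotype from the title. The causes were not tested. Summing copies was chosen after seeing the data.

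The numbers in the titles were not taken as pairing libraries, since correlations of deviations for matched titles were 0.0092 to 0.117 and only 2 of 6 were over 0.1. In 3 of the 6 the correlation was above every unmatched one of the same mTEC hi library, a hint from the data and not the design. A replicate block by number gave 19507 genes between cell types, 1 and 45 between genotypes in mTEC hi and mTEC lo, and 7 for the interaction. Ccl21b and Ccl24 rest on 8 reads in mTEC hi and 15 reads in mTEC lo. Without disputed replicate 1 of mTEC hi Ccl21b was at -6.06, against -4.59 with it, and without disputed replicate 3 of mTEC lo Ccl24 was at 5.97, against 4.78.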
